A study of Mus musculus with 4 samples.

Results

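The siControl-only regions are stretches of mouse DNA where both ATAC-seq libraries of cells given a control siRNA hold a peak and neither library of cells given an siRNA against Chst7 does. Overlapping peaks of the 4 libraries, by 1 bp or more, were joined on chromosomes 1 to 19 and X, which gave 90202 regions. A member needed a peak of at least 200 bp with a −log10 q of at least 5 in siControl replicates 1 and 2, and no peak of any strength in siChst7 replicates 1 and 2. The rule gave 1366 members, 1.51% of all regions, and the peak lists of the same 4 libraries chose them, so peak presence and strength are described here and not tested.

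All libraries came from iMGT-Myh6-eGFP-MEF cells, fibroblasts of mouse embryos kept as a line. Doxycycline turns on MGT in them, that is the heart factors Mef2c, Gata4 and Tbx5, and by its name the line also has eGFP under Myh6, a myosin gene of heart muscle. The groups were siChst7 with MGT induced by 1 μg/mL doxycycline and taken at day 1 (2 libraries), and siControl with the same induction and time (2 libraries); both groups therefore carried the induced factors, and cells without doxycycline were not analysed here. Replicates are labelled as biological, with no word on separate cultures, and the labels name a single line. An siRNA acts on a transcript, so these libraries do not show whether Chst7 was lowered, and no member was assigned to Chst7.

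ATAC-seq uses the Tn5 transposase to cut and tag DNA that is not packed tightly on nucleosomes, and a peak is a stretch with more cuts than its surroundings. Open sites at gene starts are mostly promoters that many cell types share, whereas sites between genes and inside introns include enhancers, whose opening depends more on the cell type. Chst7 encodes a sulfotransferase of the Golgi that adds sulfate to chondroitin, a sugar chain of matrix and cell surface proteoglycans. A missing peak means that the authors' list has none at a q-value of at most 0.01, not that the DNA was closed, and in bulk cells a weaker signal in every cell cannot be told apart from an open site in fewer cells.

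Few members lay at promoters, and the 5 promoters below are shown because they are the protein-coding starts inside a member whose upstream window of 250 bases, taken from RefSeq for GRCm38.p6, the assembly of mm10, lies inside the member by at least 200 bases. They were chosen after the values had been seen. Each runs 5′ to 3′ on the strand of its gene up to the base before the start, and capitals mark matches on either strand to any of the motifs searched other than the E-box; their letters follow the sequences, except for CTCF, which is given by name.
Anxa1 (annexin A1, a calcium-dependent phospholipid-binding protein; chr19:20390672-20390921, minus strand): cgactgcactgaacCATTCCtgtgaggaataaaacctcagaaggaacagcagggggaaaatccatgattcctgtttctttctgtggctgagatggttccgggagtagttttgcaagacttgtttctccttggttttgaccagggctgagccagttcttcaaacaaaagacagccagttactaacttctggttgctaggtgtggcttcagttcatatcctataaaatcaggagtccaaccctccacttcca
Rusf1 (chr7:128289005-128289254, minus strand): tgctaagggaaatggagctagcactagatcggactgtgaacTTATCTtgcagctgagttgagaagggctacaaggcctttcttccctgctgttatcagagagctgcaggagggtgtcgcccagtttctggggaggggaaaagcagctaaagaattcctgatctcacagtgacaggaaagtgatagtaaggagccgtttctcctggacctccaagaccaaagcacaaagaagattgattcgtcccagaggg
Adamts2 (a protease that trims the amino end of procollagens; chr11:50601835-50602084, plus strand): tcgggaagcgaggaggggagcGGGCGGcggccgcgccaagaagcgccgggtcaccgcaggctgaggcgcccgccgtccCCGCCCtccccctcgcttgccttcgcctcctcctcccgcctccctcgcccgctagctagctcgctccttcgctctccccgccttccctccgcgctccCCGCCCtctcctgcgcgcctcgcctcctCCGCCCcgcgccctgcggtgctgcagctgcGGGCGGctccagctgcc
Arhgef40 (a guanine nucleotide exchange factor for small GTPases; chr14:51984583-51984832, plus strand): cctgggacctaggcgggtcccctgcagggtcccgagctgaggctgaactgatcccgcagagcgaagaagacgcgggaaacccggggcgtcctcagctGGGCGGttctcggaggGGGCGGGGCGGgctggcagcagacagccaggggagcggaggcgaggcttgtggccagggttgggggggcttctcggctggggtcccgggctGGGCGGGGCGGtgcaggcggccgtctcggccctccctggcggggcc
Larp6 (an RNA-binding protein of collagen messages; chr9:60712871-60713120, plus strand): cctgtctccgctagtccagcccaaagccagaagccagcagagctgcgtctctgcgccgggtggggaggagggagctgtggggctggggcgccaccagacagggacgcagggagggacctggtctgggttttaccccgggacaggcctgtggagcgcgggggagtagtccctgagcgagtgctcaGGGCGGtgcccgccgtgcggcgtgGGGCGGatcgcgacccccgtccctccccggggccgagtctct

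Anxa1 had no peak in either siChst7 library and −log10 q values of 12.9 and 17.0 in siControl; its window held a TEAD match and was 46% G or C. Rusf1 likewise had none in siChst7, against 10.4 and 9.31 in siControl, and its window held a GATA match. The windows of Adamts2, Arhgef40 and Larp6 were 78.0%, 75.2% and 72.0% G or C and their capitals are GC boxes, the site of SP and KLF factors. Their siControl values, against no peak in siChst7, were 7.78 and 6.98 at Adamts2, 6.58 and 12.6 at Arhgef40, and 5.69 and 6.02 at Larp6, so these 3 GC-rich promoters lay nearer to the threshold of 5 in at least 1 library than Anxa1 and Rusf1 did.

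In all, 38 promoter windows of 36 genes overlapped a member by at least 1 base, 21 of them of protein-coding genes and 17 of long non-coding RNAs. Windows that overlapped a region called in both siChst7 libraries alone numbered 3, and 12098 overlapped a region called in all 4 libraries. These sets hold 541 and 55907 regions, against 1366 members, so the window counts are not on 1 scale. The member windows had a median of 54.8% G or C, against 60.8% in windows at regions called in all 4 and 52.4% over all 32619 windows of the table. The GC box GGGCGG stood in 14 of the 38 (36.8%), against 60.4% of the windows at regions called in all 4 and 33.0% of all windows. The E-box CANNTG, the site of helix-loop-helix factors such as Twist, stood in 31 (81.6%), against 55.2% at regions called in all 4 and 66.2% of all. CCAAT of NFY stood in 6 (15.8%), against 36.4% at regions called in all 4 and 34.0% of all windows. Low counts were found for TEAD GGAATG (5, 13.2%, against 12.6% of all windows), AP-1 TGANTCA (2, 5.26%, against 6.78%), AGATAA of the GATA factors (2, 5.26%, against 10.0%) and ETS CCGGAAG (1, 2.63%, against 6.96%). The CRE TGACGTCA, the T-box site AGGTGTGA and a core motif of CTCF stood in 0 of 38. Both strands of each whole window were searched, so a match may lie outside the member. E-boxes may overlap other motifs, and a match in these letters is not evidence of binding. The 38 windows are too few to read a share closely.

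Of the miRNA genes in the reference table, 1 lies inside a member. The hairpin of Mir6939 sits in the member at 12, 112659074 to 112659380, within Akt1, a kinase of insulin and growth factor signalling, which had no peak in siChst7 and −log10 q values of 12.5 and 14.3 in siControl. Within 2 kb of a member lay 3 more, of which Mir3103 is 475 bp from the Rusf1 member. Mir199b, shown for its place in the well-known miR-199 family, lies 682 bp from the member at 2, 32319251 to 32319609, inside Dnm1, the gene of the membrane-scission GTPase dynamin 1, with 10.2 and 16.4 in siControl. The mature sequences are shown with the seed, bases 2 to 8, in capitals, and the 3 seeds differ.
mmu-miR-6939-5p: cAGGCAGCugguugguggaag
mmu-miR-6939-3p: cCUCACUUgacccgcugcag
mmu-miR-199b-3p: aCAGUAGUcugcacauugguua

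The siControl pair of libraries had the highest count of the 6 pairs of libraries. Regions called by the same rule in the siChst7 pair alone numbered 541 (0.600% of all regions). The mixed pairs gave 1032 regions for siControl 2 with siChst7 1 (1.14%), 882 for siControl 1 with siChst7 1 (0.978%), 317 for siControl 2 with siChst7 2 (0.351%), and 292 for siControl 1 with siChst7 2 (0.324%). The split by siRNA therefore held 1907 regions (2.11%), against 1199 for the split by replicate number (1.33%) and 1324 for the crossed split (1.47%). With 2 libraries against 2, an exact two-sided permutation test cannot give a p below 0.333, and none was run.

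Every pair that includes siChst7 replicate 2 had a lower count than every pair without it. That library had the shortest list, 66165 peaks, against 74402 in siChst7 replicate 1 and 73902 and 75696 in siControl. Its estimated background read density was also the lowest, at 0.757 relative to siControl replicate 1. The value was 1.02 in siChst7 replicate 1 and 0.963 in siControl replicate 2. With each list cut to the 66079 strongest peaks on these chromosomes, the siControl-only count was 1363 and the siChst7-only count 1076, so the ratio of the pair counts was 1.27, against 2.52 with the lists as deposited. The mixed pairs then gave 573 to 949 regions. The ratio was 4.25 with a minimum −log10 q of 10 (485 and 114 regions) and 2.01 to 2.67 under the other alternatives that keep all 4 libraries. Of the 1366 members, 1023 (74.9%) overlapped a member of the shortened lists. Leaving out siChst7 replicate 2 gave 2379 siControl-only regions, leaving out siChst7 replicate 1 gave 4807, and leaving out siControl replicate 1 or 2 gave 4091 or 3765, since fewer libraries then had to agree.

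**Figure D1:**
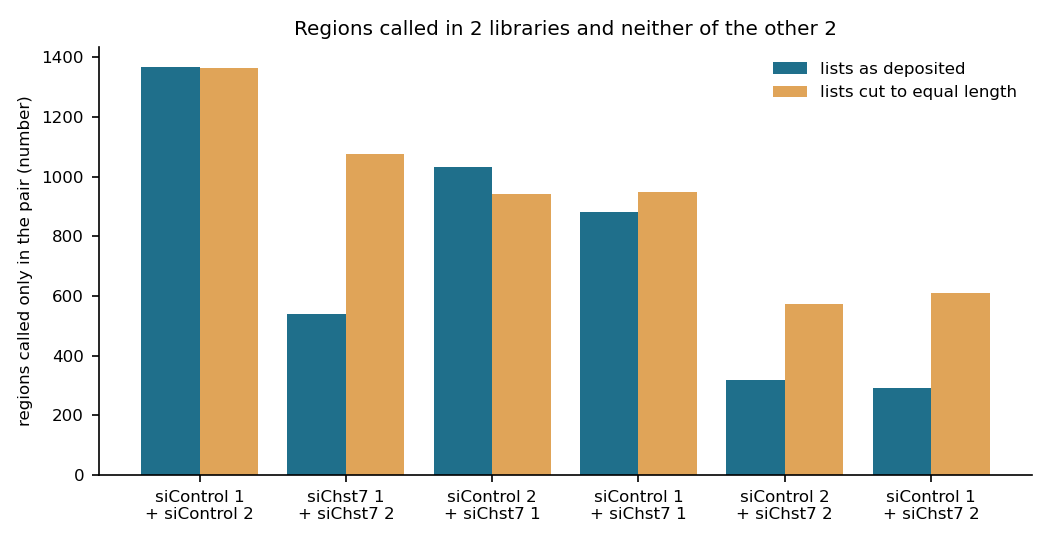
Number of regions (y axis) called in both libraries of a pair and in neither of the others, for the 6 pairs of the 4 libraries (x axis), with the lists as deposited (blue) and cut to equal length (orange). The siControl pair is highest in both, at 1366 and 1363, and the siChst7 pair stands at 541 and 1076.

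Depth stands in another way beside these counts. As a share of the regions that qualified in both libraries of an siRNA, members were 2.29% of 59727 in siControl, and siChst7-only regions were 0.960% of 56363 in siChst7. The pileup, the number of fragments over the summit, could be solved from the deposited fold enrichment where a peak was set against the genome-wide background, for 340 members in siControl replicate 1 and 240 in siControl replicate 2. There it was 13 to 19 fragments (median 16) and 12 to 15 (median 14). The weakest peaks listed in siChst7 replicates 1 and 2 had 9 and 8 fragments, as did the weakest in siControl replicates 1 and 2. The minimum −log10 q of 5 in the rule sets these members above the listed minimum. The part of depth in the members' missing siChst7 peaks was not tested.

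Members, like the regions of every other pair, were mostly weak peaks, with a strong minority. The authors' −log10 q at members ran from 5.01 to 57.5 (median 10.2) in siControl replicate 1 and from 5.00 to 48.5 (median 9.74) in siControl replicate 2. The lower of both values had a median of 8.36, against 7.02 for siChst7-only regions, 7.02 to 7.52 for the mixed pairs, and 33.6 for the lower siControl value at regions called in all 4 libraries. It was at least 10 at 485 members, at least 20 at 79 and at least 30 at 18, and under 6 at 270. Fold enrichment over the local background had medians of 5.64 and 5.67. Replicate 1 had the higher q at 724 members and replicate 2 at 642, and at 1260 the values lay within a ratio of 2. The 2 summits of a member lay a median of 29 bp apart, and at most 50 bp apart at 872 members (63.8%), against 36 bp and 59.1% for siChst7-only regions, and 26 to 33 bp and 61.7% to 66.1% in the 4 mixed pairs.

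**Figure D2:**
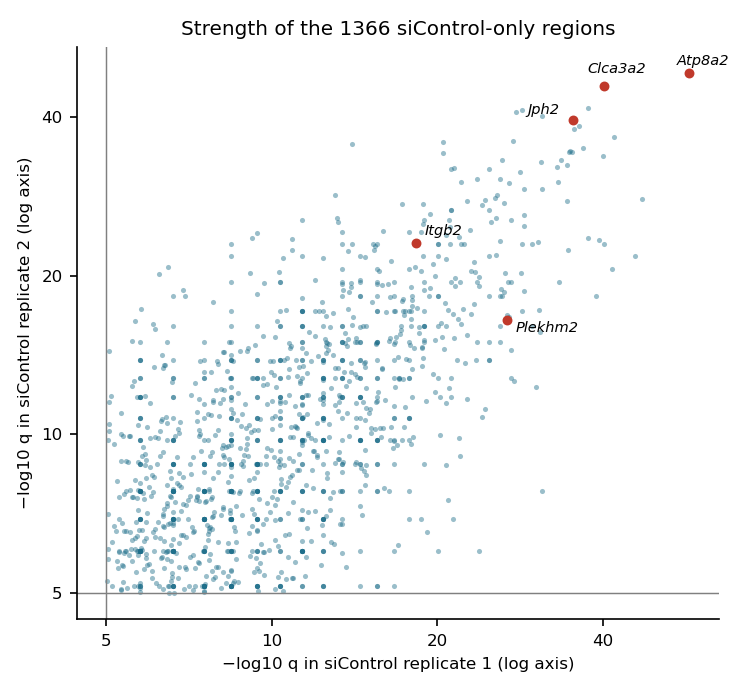
The authors' −log10 q of each of the 1366 siControl-only regions in siControl replicate 1 (x axis) and replicate 2 (y axis), both on log axes, with grey lines at the threshold of 5. Most points lie low and left; Atp8a2, at 57.5 and 48.5, is the highest in both.

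The 12 strongest members, by the lower of their siControl values, all lay more than 3 kb from an annotated gene start. The strongest, inside Atp8a2 (14, 60016015 to 60016355), which encodes a flippase that moves phospholipids between the leaflets of a membrane, had no peak in either siChst7 library and −log10 q values of 57.5 and 48.5 in siControl. The nearest siChst7 peak of any strength lay 20.7 kb away. Clca3a2 (3, 144801870 to 144802319), of a family of chloride channel regulators, had none in siChst7, against 40.2 and 45.8 in siControl, with the nearest siChst7 peak at 16.1 kb. At Nmur2, a receptor of neuromedin U, the member 66.8 kb from the gene had 37.6 and 41.5 in siControl and a siChst7 peak 1.92 kb away. Igsf9b, an adhesion protein of synapses, followed with 41.9 and 36.6 in siControl, inside the gene at 9, 27326057 to 27326376. These 4 members had fold enrichments of 12.2 to 17.7, well above the member median in both siControl libraries.

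Of the other 8 strongest members, the one near Gm10410 had −log10 q values of 36.2 and 38.4 in siControl and lay 69.2 kb from any siChst7 peak. Near Kctd3 the values were 35.4 and 37.9. Jph2 encodes junctophilin 2, which holds the sarcoplasmic reticulum close to the surface membrane in heart muscle, and its member (2, 163392549 to 163392821), 5.23 kb inside the gene, had no siChst7 peak and 35.3 and 39.5 in siControl. It lay 1.5 kb from a region called in all 4 libraries. Near Foxe1, a thyroid transcription factor, the values were 36.9 and 34.9; inside Iqgap2, a scaffold protein, 34.9 and 34.4; near D16Ertd472e, 35.1 and 34.4; near Tln2, talin 2, which ties integrins to actin, 34.7 and 34.3; and near Eid2, an inhibitor of the acetyltransferase EP300, 40.04 and 33.8. Of the 12, only the member at Eid2 lay within 5 kb of a gene end, and only Jph2 was on one of the gene lists.

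Members were rarer at gene ends than regions called in all 4 libraries. A gene end is either border of a protein-coding gene of the RefSeq table. Of the members, 96 (7.03%, exact 95% binomial interval 5.73% to 8.51%) lay within 1 kb of one, against 4.62% of siChst7-only regions (25 of 541, 3.01% to 6.75%), 6.42% of the regions of the 4 mixed pairs (5.50% to 7.45%), 22.0% of the regions called in all 4 and 16.4% of all regions. Intervals cover counting error only. The median distance to a gene end was 17.1 kb (15.8 to 18.9), against 24.2 kb for siChst7-only regions (20.6 to 28.0), 19.6 kb for the mixed pairs (18.1 to 21.5), 11.9 kb for regions called in all 4 and 14.2 kb for all regions. The intervals of members overlapped those of the mixed pairs together in both measures, and those of siChst7-only regions for the share and not for the median. Single mixed pairs had medians of 17.1 to 23.7 kb, and the highest, siControl 2 with siChst7 1 (21.1 to 25.9 kb), also did not overlap the members. Regions are not replicates, and no test of these differences was made.

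Members within 1 kb of a gene end were less one-sided than shared regions were. Strand was known for 72 of the 96, and 43 of these (59.7%) lay at the 5′ end and 29 (40.3%) at the 3′ end, against 55.6% at the 5′ end among 18 siChst7-only regions, 58.9% in the mixed pairs and 86.8% among regions called in all 4. An annotated start lay inside 24 of the 1330 members off chromosome 18 (1.80%, 1.16% to 2.67%), against 2 of 521 siChst7-only regions (0.384%, 0.0465% to 1.38%), 39 of 2434 regions of the mixed pairs (1.60%) and 16.3% of regions called in all 4. Members lay inside a gene in 730 cases (53.4%), against 59.3% of siChst7-only regions, 52.8% in the mixed pairs and 57.4% of regions called in all 4. At the far end, 166 members (12.2%) lay over 100 kb from any gene end, against 14.2%, 13.6% and 10.2% in those sets.

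**Figure D3:**
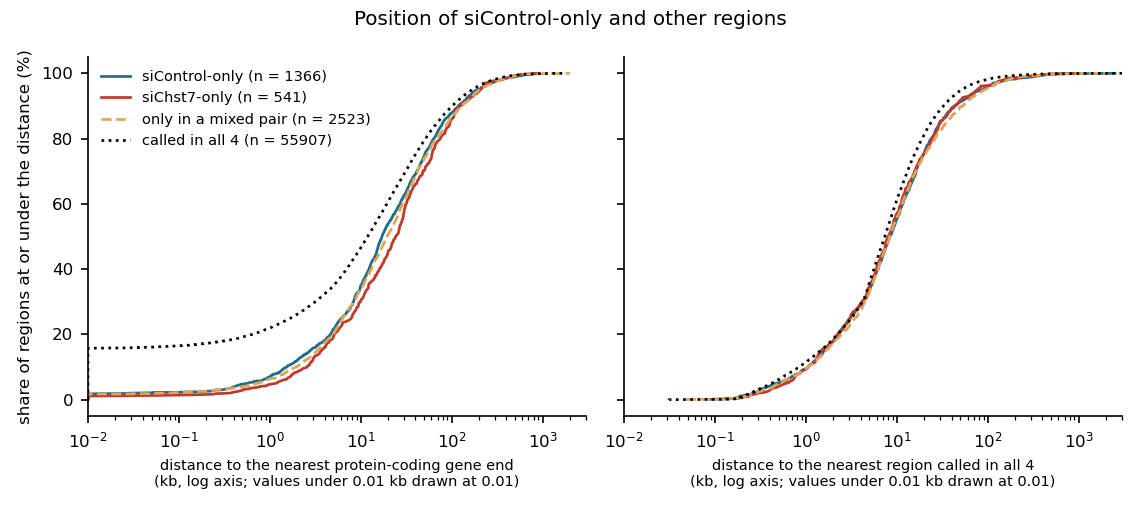
Share of regions (y axis, %) at or under a distance (x axis, kb, log scale) to the nearest protein-coding gene end (left) and to the nearest region called in all 4 libraries (right), for 1366 siControl-only, 541 siChst7-only, 2523 mixed-pair and 55907 shared regions. The shared regions start far above the others at gene ends (22.0% within 1 kb, against 7.03% of members), while on the right the 4 lines lie close together.

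The 10 strongest members within 1 kb of a gene end sat at a 3′ end in 5 of the 6 cases with a known strand. Fam83a (15, 58009652 to 58010115), 0.591 kb inside the gene's border, had no siChst7 peak and −log10 q values of 26.2 and 33.2 in siControl. Rab5c, a GTPase of early endosomes, held its member 0.862 kb inside its 5′ border, at 26.6 and 20.2. Dhx30, an RNA helicase, had a member over its 3′ border (9, 110084152 to 110084444) at 19.4 and 26.2, only 0.850 kb from a region called in all 4. At Plekhm2, which links lysosomes to kinesin, a member 0.026 kb outside the 3′ border had 26.8 and 16.5. The remaining 6 lay at 4921524L21Rik, Exoc3l, Fam50b, Pwwp3a, Prdm12 and Itgb2, the leukocyte integrin beta 2, with values of 15.2 to 30.5 in siControl. No siChst7 library had a peak in any of the 10, and the 2 siControl values of each lay within a ratio of 2.

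The distance of members to shared regions lay within the range of the other pair-only sets. The median distance to the nearest region called in all 4 was 8.43 kb (7.77 to 9.19), against 8.19 kb (7.28 to 9.17) for siChst7-only regions, 8.38 kb (7.93 to 8.82) for the mixed pairs together and 7.38 kb between the shared regions themselves. Single mixed pairs ran from 6.58 kb (6.06 to 7.24, siControl 1 with siChst7 1) to 9.94 kb (8.79 to 10.9, siControl 2 with siChst7 1), and the interval of the first does not overlap that of the members. Within 1 kb lay 130 members (9.52%), against 9.24%, 9.59% and 11.5% in those sets. The nearest siChst7 peak of any strength was a median of 5.55 kb from a member, within 1 kb at 190 members and within 100 bp at 4. The members nearest to a shared region, at 0.088, 0.093 and 0.122 kb, belonged to Cbx8, Cdca7l and Matn4. The farthest lay 2520 kb away near 4930415L06Rik on X, 862 kb away near Cylc2 and 644 kb away near Mup-ps12, in the cluster of major urinary protein genes, whose copies are so alike that reads there may not be placed with certainty.

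Fold enrichment differed with that distance although q hardly did. The 130 members within 1 kb of a shared region had median folds of 3.88 and 4.002, and 60 of them (46.2%) were under 4 in both siControl libraries. Median folds were 5.17 and 5.20 at 1 to 10 kb (627 members), 6.17 and 6.31 at 10 to 100 kb (555 members) and 6.68 and 6.75 beyond (54 members, none of them under 4 in both). Median −log10 q was between 9.74 and 10.9 in each of these classes. Fold is the summit pileup over each peak's own local background. Of the 54 farthest members, 29.6% lay inside a gene, against 58.5% of the 130 nearest.

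Members were spread over many genes, seldom more than 1 to a gene. The 730 members inside genes were held by 699 genes, of which 665 held 1, 30 held 2 and 4 held 3. The genes were long, with a median of 80.7 kb, against 93.6 kb for the 316 genes with siChst7-only regions and 17.3 kb for all protein-coding genes. Of the 699 genes, 86.4% also held a region called in all 4, against 57.1% of all protein-coding genes. The 699 were chosen for holding a member, and the comparison was not matched for gene length. The 4 genes with 3 members were Ptpre, a tyrosine phosphatase, Rasa3, a GTPase-activating protein of Ras and Rap, Slco3a1, an organic anion transporter, and Sorcs2, a receptor of the sortilin family. In Slco3a1 the member at 7, 74371157 to 74371630 had 39.3 and 23.4 in siControl, and the other 2 had 7.52 to 12.8. In Sorcs2 the member 1.89 kb inside the gene's border had 28.4 and 20.3, and the others had 9.41 to 18.0. The members of Ptpre (6.02 to 14.8) and Rasa3 (6.03 to 13.2) were all weaker, and those of Rasa3 had folds of only 2.16 to 5.21.

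Close groups of members were few. Of the 1366 members, 1134 had no other within 100 kb on either side and 232 had at least 1. The densest group, with 4 members within 100 kb, lay beside Ifngr1, the gene of a chain of the interferon-gamma receptor, and spanned 99.2 kb of chromosome 10 with 12 regions, of which 3 were called in all 4 libraries. Its members had no siChst7 peak and siControl values of 9.16 and 10.1, 7.79 and 6.61, 11.6 and 7.13, and 9.39 and 6.55, in the order of their positions. All 4 lay outside the gene, 3.22 to 76.9 kb from its borders, and none passed 12 in either siControl library. Ptpre and Rasa3 followed, with 3 members each in 91.9 and 40.1 kb.

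**Figure D4:**
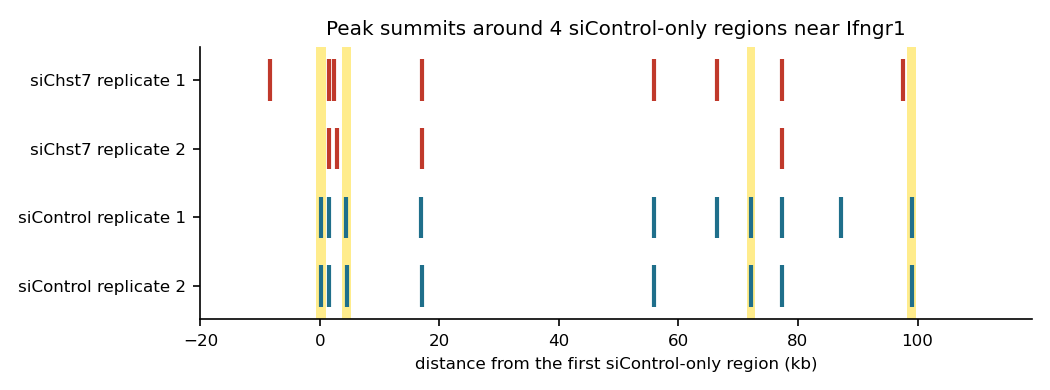
Peak summits in each library (rows) by distance from the first of the 4 siControl-only regions beside Ifngr1 (x axis, kb); yellow bands mark these regions, widened for display. Both siControl rows and neither siChst7 row have a summit in each band, while other summits between the bands are shared by 2 to 4 libraries or are found in 1.

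Gene groups relevant to this cell system held members at about the rate of all regions. On 26 lists with 659 genes, a region was assigned to a gene it lay inside or whose end was the nearest and within 100 kb. Members on any list numbered 76 (5.56%), against 5.73% of siChst7-only regions, 4.95% in the mixed pairs, 5.56% of regions called in all 4 and 5.43% of all regions. The counts per list are small, and no list was tested.

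Fibroblast and matrix genes had 12 members at 12 genes, 0.878% of members, against 2 siChst7-only regions (0.370%) and 0.773% of all regions. Pdgfra, the PDGF receptor of mesenchymal cells, had a member 78.4 kb from its border with no siChst7 peak and 10.4 and 13.9 in siControl, and Twist2, a helix-loop-helix factor of mesenchyme, one 58.3 kb away with 11.4 and 17.2. Tcf21, Foxp1 and Cd34 had members with 8.44 to 13.0. In the collagen gene Col5a1, the stronger of 2 members (2, 27969242 to 27969604) had 17.1 and 15.5, and the other 6.76 and 10.1. Loxl1, an enzyme that crosslinks elastin, had a member 17.0 kb away with 10.9 and 23.5. Fbln1, the matrix protein fibulin 1, and Adamts2 had theirs over the gene start, and Fbln1 (15, 85205901 to 85206137) had 7.99 and 13.6. Col6a3 and the member shared by Col4a1 and Col4a2 completed the list, at 10.5 and 5.05 and at 12.4 and 12.7. Each of these members had no peak in siChst7 replicate 1 or 2, and only Loxl1 passed 20 in a siControl library.

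Cardiac genes had 15 members at 13 genes, 1.10% of members, against 7 siChst7-only regions (1.29%), 0.832% in the mixed pairs and 0.785% of all regions. Ion handling and junction genes made up 8 of the 15. Besides its strong member, Jph2 had a weaker one 18.2 kb inside the gene with 7.67 and 6.55. Kcnq1, a potassium channel of repolarisation, had 11.7 and 15.6, and Ryr2, the calcium release channel, had a member with 7.52 and 7.83 and another with 6.18 and 8.77. Cacnb2, a subunit of the L-type calcium channel, and Popdc2, a cyclic AMP-binding membrane protein of heart, had 6.31 to 7.83. Apart from the strong Jph2 member, the members named here were under 16 in both siControl libraries.

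Among the other cardiac genes, Myl4, the atrial light chain of myosin, had a member with no siChst7 peak and 17.2 and 17.9 in siControl. At Myl2, the ventricular light chain, a member 1.85 kb from the border had 11.3 and 9.56. The transcription factor Gata5, the fatty acid receptor Ppara, the coactivator Ppargc1a and the actin-responsive coactivator Mrtfb had 5.04 to 13.8. Their members lay outside the genes, 15.3, 62.8, 67.6 and 29.1 kb away in that order. Ankrd1, a stress-responsive repeat protein, had 6.32 and 10.7 at a member 59.1 kb away. Smooth muscle genes had 4 members (0.293%), against 1 siChst7-only region (0.185%), 0.159% in the mixed pairs and 0.161% of all regions. Among the 4 members, that of Mylk, the kinase of myosin light chains, had 15.2 and 17.8. That of Myh11, smooth muscle myosin, had 10.3 and 11.05 at 0.652 kb inside its border. In Synpo2, an actin-binding protein, the values were 15.6 and 12.8 and 15.6 and 8.77. None of these contractile genes' members held a start.

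The pathway of Chst7 itself, chondroitin and other glycosaminoglycan synthesis with proteoglycans, had 9 members at 9 genes (0.659%), against 6 siChst7-only regions (1.11%) and 0.711% of all regions. Chst11, a sulfotransferase of chondroitin, had a member 13.0 kb inside the gene with no siChst7 peak and 11.8 and 13.8 in siControl, and Csgalnact1, which starts chondroitin chains, one with 5.75 and 13.9. Dse, an epimerase that turns chondroitin into dermatan, had 6.43 and 14.9 at 0.575 kb inside its border. Papss1, which makes the sulfate donor, had 8.44 and 11.8; Hs2st1, a heparan sulfotransferase, 8.48 and 6.02; and Sulf2, an extracellular heparan sulfatase, 15.5 and 14.9. Of the proteoglycan genes, Dcn had a member 0.384 kb from its border with 7.73 and 9.10, and Vcan one 36.2 kb away with 6.62 and 12.8. The hyaluronan synthase gene Has2 had one 50.5 kb away with 5.75 and 13.9. Only Sulf2 and Chst11 exceeded 10 in both siControl libraries.

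Signalling genes of the TGF-beta and BMP pathway had 8 members at 8 genes (0.586%), against 0 siChst7-only regions, 11 in the mixed pairs (0.436%) and 0.422% of all regions. Smad6, an inhibitor of BMP signalling, had a member 36.6 kb from its border with no siChst7 peak and 30.7 and 15.6 in siControl. Id3, a target of BMP signalling, had 16.1 and 17.0 with folds of 3.36 and 3.49, 0.817 kb from a shared region. Smad3, a transducer of TGF-beta, had 7.43 and 9.28, and Smad7, an inhibitor, 7.90 and 12.2. The receptors Bmpr1a and Acvr1 had 5.56 and 15.0 and 6.62 and 6.02, and the Acvr1 member lay inside Upp2, 79.3 kb from Acvr1. Smurf2, a ubiquitin ligase of the pathway, and the ligand Bmp6 had 5.10 to 10.1. With 541 siChst7-only regions in all, a count of 0 allows a share of up to 0.555% (3 counts, counting error only). The members' share of 0.586% lies just above that but carries the counting error of 8 regions, and the difference was not tested. Several other lists also had 0 siChst7-only regions, among them matrix and its crosslinking and the cardiac transcription factors.

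Wnt genes had 7 members (0.512%), against 3 siChst7-only regions (0.555%), 0.357% in the mixed pairs and 0.394% of all regions. Those assigned to Sfrp1 (10.0 and 13.8 in siControl), Ror2 (11.4 and 9.74), Dkk2 (11.4 and 7.83) and Fzd7 lay outside the genes. Their distances were 84.35, 19.1, 14.1 and 24.0 kb, in that order. The members of Lrp6 (9.18 and 7.73), Tcf7 and Axin1 lay inside the genes, and no Wnt member had a siChst7 peak. The remaining lists had 0 to 3 members each. Among them were Tead1 and Stk4 of the Hippo pathway, Notch3 and Dll1 of Notch, Cdkn2a and Ccne1 of the cell cycle, Runx2 and Sox11, and Itgb1 and Itga11. Each of these lists had 0.146% of members, against 0.162% to 0.302% of all regions. Ifih1 (18.0 and 18.0) was the member of the inflammation and interferon list (0.0732%, against 0.207% of all regions). The skeletal muscle, endothelial and blood, neural and immune lists had larger shares of members than of all regions, by small counts. Members numbered 1 on the skeletal muscle list (0.0732%, against 0.119% in the mixed pairs and 0.0521% of all regions). They numbered 3 on the endothelial and blood list (0.220%, against 0.0396% and 0.174%) and 2 on the neural list (0.146%, against 0.159% and 0.103%). None of these lists had a siChst7-only region. AP-1, HOX and housekeeping genes had 0 members; these lists held 87, 83 and 68 of all regions. Beside these counts, 5 of 8 fibroblast markers and 3 of 6 cardiomyocyte markers were open within 1 kb of either end in each of the 4 libraries, as were 3 of 4 smooth muscle, 0 of 4 endothelial, 1 of 3 immune, 0 of 3 epithelial, 0 of 3 skeletal muscle and 1 of 3 neural markers. By library, immune markers open at an end numbered 1 and 1 in siChst7, against 2 and 2 in siControl, skeletal muscle markers 1 and 1 in siChst7, against 2 and 1 in siControl, and neural markers 1 and 2 in siChst7, against 2 and 1 in siControl. Members lay at an end of 1 skeletal muscle marker, Myog (6.82 and 7.95 in siControl), and of 1 smooth muscle marker, Myh11. Per 100 regions of a list, members numbered 3.85 on the immune list (2 of 52, both assigned to Fcgr1, an Fc receptor). On the ion handling list members numbered 3.62 (8 of 221), against 1.51 over all regions. These were the highest such rates among the lists. The ion handling list held 0.586% of members, 0.370% of siChst7-only regions and 0.396% of the mixed pairs, against 0.245% of all regions. Its share was therefore above that of all regions in the other pair-only sets too. The immune list held 0.146% of members, 0 siChst7-only and 0 mixed-pair regions, and 0.0576% of all regions. The part of any other cell type in the members was not tested.

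**Figure D5:**
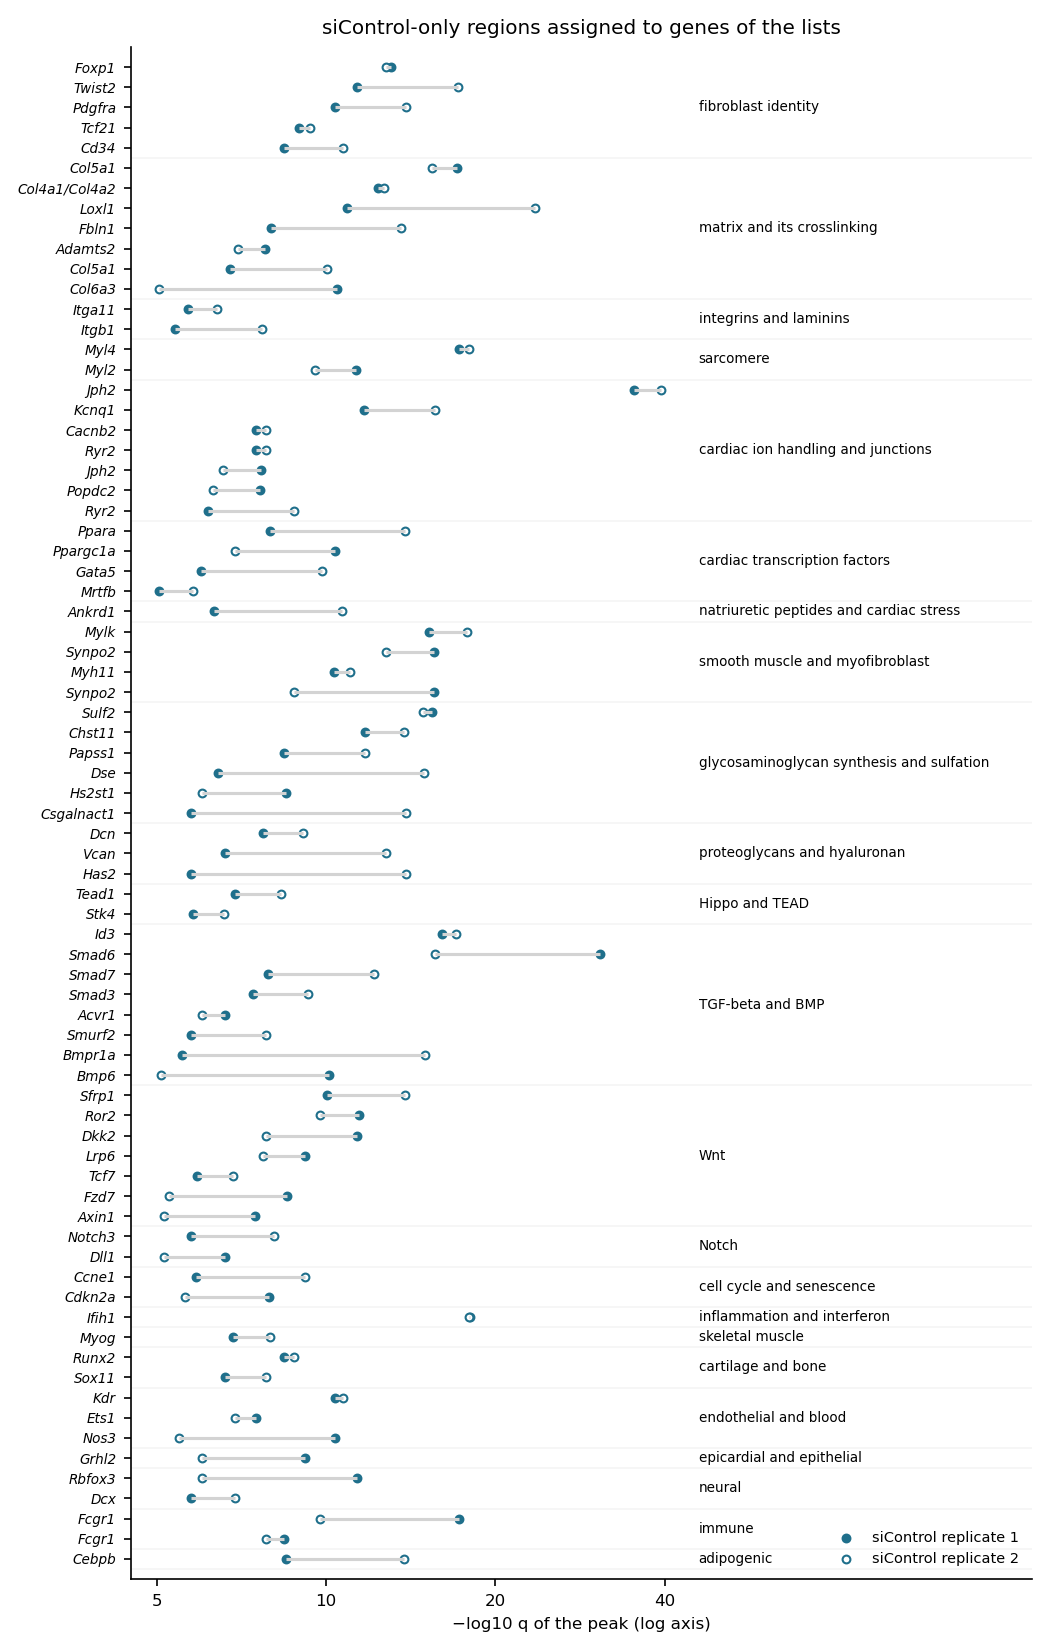
The authors' −log10 q (x axis, log scale) in siControl replicate 1 (filled) and replicate 2 (open) of the siControl-only regions assigned to genes of the lists and reported here (y axis, grouped by list); siChst7 has no peak at any of them. Most pairs lie between 5 and 20, and Jph2 and Smad6 reach above 30 in at least 1 library.

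The thresholds cut through a continuum. Of 2561 regions with any peak in both siControl libraries and none in siChst7 (2.84% of all regions), 647 failed on q alone, 324 on width alone and 224 on both. Just inside the q threshold were members near Ccdc93 (6.49 and 5.00), in Errfi1 (6.64 and 5.00) and in Psmd2 (5.01 and 5.27), and just outside it regions near Kif3c (7.15 and 4.998), in Myo18a (7.02 and 4.99) and in Hbs1l (6.85 and 4.99). Just inside the width threshold were members at Id3, Serpinh1 and Trim67, each with a narrower peak of 200 bp, and just outside it regions in Fmn1 (32.6 and 24.7), at Vangl2 (24.8 and 19.5) and near Sema6c (16.5 and 17.8), each with one of 199 bp. The region in Fmn1, left out by 1 bp of width, was above 20 in both siControl libraries, as were 79 members.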

How the data were processed

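The members, gene lists and markers were chosen with earlier results of these data known. Per the labels' protocols, siRNA was given a day before doxycycline (1 μg/mL), day 1 cells were frozen and later tagmented, and paired sequencing (75 bp) aimed at 50 M reads for each library. Bowtie, SAMtools, MACS3, HOMER, bedtools and mm10 are listed in the submitters' processing notes. Settings, duplicate and mitochondrial filters and any Tn5 shift were not given in the sources used here.

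Peaks were called per library. Each deposited peak has a −log10 q and −log10 p of its summit, a fold enrichment (a ratio of summit pileup to local background made by the authors' caller) and a score, which is a whole number deposited by the authors and not used further. The lowest −log10 q lies just above 2 in each library. Read totals are unknown; background pileup and summit pileups were recovered where fold enrichment fell on whole fragments (within 0.001) and the Poisson −log10 p matched the deposited one within 0.02. Background pileup was 2.03 and 1.48 in siChst7, against 1.92 and 1.82 in siControl. Background read density was estimated as this pileup divided by the width of the library's narrowest peak.

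Peaks on chromosome Y (24 to 28 per library), the mitochondrial genome (4 per library) and other sequences (58 to 73 per library) were left out. Genes came from a RefSeq table of GRCm38.p6 with 21627 protein-coding genes on these chromosomes; strands, promoter windows and miRNAs came from RefSeq sequence tables without chromosome 18. Of 659 listed genes 657 matched. Named members are the 12 with the highest lower siControl −log10 q, the 10 highest within 1 kb of a gene end, all on the lists, all in genes with 3 or more members, the 3 nearest to and the 3 farthest from a region called in all 4, those beside the thresholds, and the 3 densest groups; the promoters and miRNAs were added after their values were seen. A member on the lists that is counted but not named or plotted is not reported here. No test was run. Alternatives changed the q and width minimum, the merging, the list length and the libraries. Tested on simulated peak lists of 2000 regions, the rule recovered 500 of 500 planted ones. Intervals of shares are exact binomial and those of medians come from order statistics, both at 95%. Python 3.11.15, pandas 2.3.3, numpy 2.4.6 and scipy 1.17.1 were used.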

Additional observations from a re-analysis of the deposited data

How the results depend on the processing

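The siControl pair had the highest count of the 6 library pairs with the lists as deposited and under each of the 7 alternatives that keep all 4 libraries. The number of siControl-only regions was 485 with a minimum −log10 q of 10 and 313 with a minimum width of 300 bp, and 1362 to 2013 under the other 5. Leaving out 1 library gave 2379 to 4807. The share within 1 kb of a gene end was 4.79% with a width of 300 bp, 10.3% with 200 bp windows at summits, 14.1% with a window of 2.5 kb and 13.2% with the ends of all genes (6.65% to 8.28% without 1 library). The median distance to a gene end was 15.5 kb with 300 bp, 15.8 kb with summit windows and 8.84 kb with all genes (15.6 to 17.8 kb without 1 library). The median distance to a region called in all 4 was 7.35 kb with a −log10 q of 10 (7.40 to 9.10 kb without 1 library). The share inside a gene was 52.2% to 55.6% throughout. Of 124 named members, 49 were called with a −log10 q of 10, 26 with 300 bp and 92 with lists of equal length; 9 were called under all 5 filters and mergings that could drop them, namely those at Clca3a2, Foxe1, Plekhm2, Foxp1, Eid2, Igsf9b, Loxl1 and Atp8a2 and, of the 3 in Slco3a1, the one at 7, 74537006 to 74537508. Apart from the construction of each alternative, the cause was not tested. No paired analysis was possible because the result comes from no test that could carry a replicate block; the count for the split by replicate number was 1199. The depth of siChst7 replicate 2 limits what a missing peak can show.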

Other observations

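A siChst7-only region lay inside 31 of the 699 genes with a member (4.43%), against 1.46% of all protein-coding genes. In turn those 31 were 9.81% of the 316 genes with a siChst7-only region, and 3.23% of all protein-coding genes held a member. Genes of both kinds are longer than most, as given above, and genes are not independent units. Of these, Gse1, Iqgap2, Nav2, Pdss2, Phlpp1, Tnrc18, Tns3 and Uvrag each held 2 members and 1 siChst7-only region. Nav2, a gene of 651 kb, also held 24 regions called in all 4 libraries; Tns3, the focal adhesion protein tensin 3, held 19, and Gse1 held 29. In Cacnb2, the calcium channel subunit, 1 member stood beside 1 siChst7-only region and 3 regions called in all 4. Whether long genes hold both more often than their number of regions gives was not tested.

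Members per 100 regions varied between chromosomes, with 1.85 on X, 1.82 on 7 and 1.81 on 14 at the upper end, and 1.17 on 15, 1.20 on 13 and 1.21 on 12 at the lower end. These are descriptions of 39 to 88 members on each, with no test.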
